A study of Mus musculus with 8 samples.

Results

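The genes described are the 32 listed subunits of SAGA and ATAC, the transcriptional coactivator complexes built around the GCN5 and PCAF acetyltransferases. They were picked by name from the 31417 genes of the deposited count table, and all 32 matched an Ensembl identifier and passed the filter on low counts, which left 16511 genes tested. RNA was sequenced from the striatum, the input nucleus of the basal ganglia, of mice aged 12 months, with a single striatum per library. The 4 Dclk3 knockout (KO) libraries held 24441242 to 34919463 counts and the 4 wild-type (WT) libraries 28776767 to 37145559, and the comparison asks how expression in the adult striatum differs without the striatum-enriched kinase gene Dclk3. The sources used here do not give the allele, the strain, the sex of the mice or the part of Dclk3 that was deleted.

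SAGA acetylates histone tails at promoters and removes ubiquitin from histones in transcribed genes, and it helps to load TBP, the TATA-binding protein. ATAC carries the same acetyltransferases with a different set of partners and a further acetyltransferase of its own. Both contain the adaptor TADA3. An expanded glutamine tract in the SAGA subunit ATXN7 causes spinocerebellar ataxia, a neurodegenerative disease. Several subunits also work elsewhere: TAF9, TAF10 and TAF12 in the general factor TFIID, TRRAP in the TIP60 acetyltransferase complex, SF3B3 and SF3B5 in the spliceosome, WDR5 in histone methyltransferases, DR1 in the repressor NC2, POLE3 in DNA polymerase epsilon and ENY2 in the mRNA export complex TREX-2.

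Dclk3 was checked first. Its level was 27.7, 19.6, 20.9 and 22.7 CPM (counts per 1000000 counts of the library, scaled by TMM, edgeR's trimmed mean of M-values) in KO replicates 1 to 4, against 95.2, 117, 80.9 and 86.1 CPM in WT replicates 1 to 4. KO over WT, this was -2.06 on the log2 scale (edgeR quasi-likelihood test, Benjamini-Hochberg adjusted p = 0.000773). An exact permutation test (two-sided, 70 assignments) gave p = 0.0286, the smallest value that 4 against 4 libraries allow. With no filter on low counts the log2 value was -2.07 and missed the threshold (adjusted p = 0.0647, edgeR quasi-likelihood test). Markers of striatal spiny neurons summed to between 4660 and 5328 CPM in KO libraries and between 4690 and 5572 CPM in WT libraries over 12 genes, with none at 0. Single libraries stood apart in markers of adjacent tissue: 5 choroid plexus markers summed to 2882 CPM in WT replicate 4 and to at most 237.3 CPM in any other library, and 6 thalamic markers to 472 CPM in KO replicate 4 and at most 303 CPM in any other. These libraries also lay at the ends of the first principal component (23.5 for KO replicate 4 and -29.95 for WT replicate 4, 26.8% of the variance), so results were also computed without them.

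Transcripts of the subunits were present at nearly the same level in KO and WT striatum. Of the 32 genes, 0 passed an adjusted p of 0.05, where 0.00606% of all genes tested did (Dclk3 alone), and the adjusted p was 0.999 for every subunit (quasi-likelihood test of edgeR with Benjamini-Hochberg adjustment). The log2 fold change, KO over WT, was above 0 for 13 subunits and below 0 for 19, with a median of -0.017, against a median of -0.0011 over all genes tested. The estimate lay within 1.1-fold of no change for 29 of 32 subunits (90.6%). Over all genes tested that share was 73.0%, and over the 10098 genes with mean levels inside the range of the subunits other than Taf9 it was 86.6%.

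Of the 32 subunits, 28 had a 95% interval that stayed inside 1.25-fold on both sides, where 54.8% of all genes and 80.7% of those of like level had such an interval. Inside 1.5-fold stayed 31 of 32, against 77.8% of all genes. The exceptions at 1.25-fold were Kat2b, Atxn7l2, Taf9 and Sf3b5, and Taf9 was the exception at 1.5-fold. Apart from Taf9, the bounds of the intervals ran from 0.711-fold for Sf3b5 to 1.35-fold for Atxn7l2. Without replicate 4 of both genotypes the median was -0.0024 and 0 subunits passed.

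**Figure D1:**
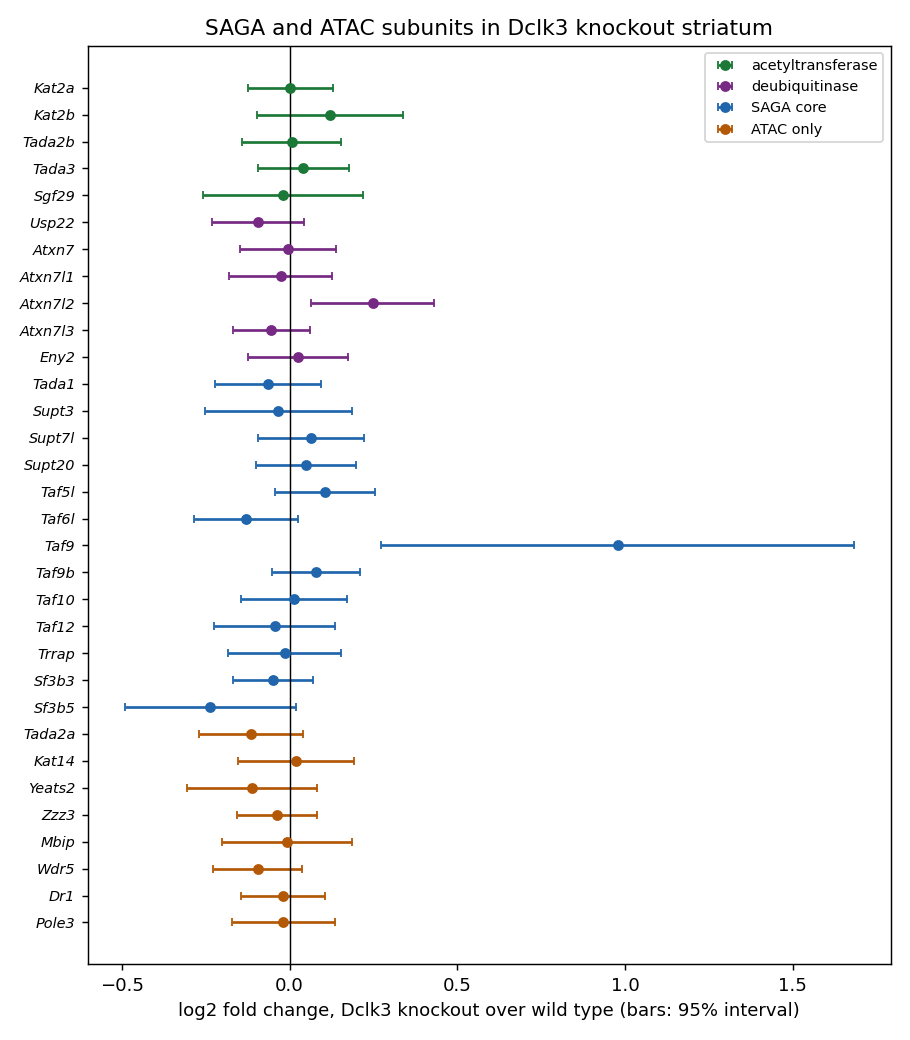
Log2 fold change of each of the 32 subunit genes, Dclk3 KO over WT, with its 95% interval from edgeR's quasi-likelihood fit; colours give the module. Most points lie close to 0 and most intervals cross it. Intervals above 0 are those of Atxn7l2 (0.25) and of Taf9 (0.98), which passed the filter on low counts only through KO.

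An unadjusted p under 0.05 was reached by 2 of 32 subunits, Atxn7l2 and Taf9, both higher in KO, while 3.76% of all genes reached it in either direction, 1.96% on the higher side and 1.79% on the lower. The libraries of the genotypes did not overlap for 3 subunits, Taf5l and Taf9 on the higher side and Taf6l on the lower. Over all genes tested 1.93% were free of overlap in either direction, 1.07% on the higher side and 0.86% on the lower. Taf9 passed the filter on low counts only through its KO libraries. Without Taf9, 1 of 31 subunits (3.23%) reached an unadjusted p under 0.05, and 2 were free of overlap. Within a genotype the subunits varied little between mice. Their median coefficient of variation was 6.24%, from 2.58% for Atxn7l3 to 21.7% for Taf9, against 9.69% over all genes tested and 7.33% over the 10098 genes of like level.

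The acetyltransferase module holds the enzymes and their adaptors, and its 5 genes had a median log2 fold change of 0.0064, with 4 above 0 and 1 below. Kat2a encodes GCN5, the main acetyltransferase of both complexes in most tissues. It measured 67.9, 76.9, 79.1 and 72.2 CPM in KO replicates 1 to 4 and 74.4, 73.0, 72.9 and 75.3 CPM in WT replicates 1 to 4. The KO libraries spread to both sides of the narrow WT range, and the means were 74.0 CPM ± 5.00 in KO and 73.9 CPM ± 1.13 in WT libraries (SD, n = 4 each). Its fold change had a 95% interval of 0.918 to 1.09, centred on 1.0.

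Kat2b encodes PCAF, the paralog that takes the place of GCN5 in a share of the complexes. Its values were 34.0, 27.1, 30.2 and 35.7 CPM in KO replicates 1 to 4, against 34.2, 27.1, 26.9 and 28.4 CPM in WT replicates 1 to 4. The groups overlapped, with KO replicates 1 and 4 and WT replicate 1 as the highest 3 libraries, and the log2 fold change was 0.12 (95% interval -0.096 to 0.34). The same 3 libraries had the highest median deviation of 8 oligodendrocyte markers from the mean of all libraries. On the log2 scale it was 0.20 and 0.22 in KO replicates 1 and 4 and 0.13 in WT replicate 1. They were also the highest for 8 microglia markers (0.056 and 0.23 in KO replicates 1 and 4, 0.067 in WT replicate 1). KO replicates 1 and 4 also lay above every other library for astrocyte markers (0.14 and 0.16) and endothelial markers (0.24 and 0.25). The same held for blood markers (0.73 and 0.41) and thalamic markers (0.44 and 1.04). In these lists the library that came next was not WT replicate 1, as with KO replicate 2 for astrocyte markers (0.066). For spiny neuron, choroid plexus and cortical markers KO replicates 1 and 4 were not the highest pair. Of the oligodendrocyte markers 8 of 8 had log2 fold changes above 0 and none passed the adjusted threshold. None was at 0 counts, and the summed levels were 8844 to 10445 CPM in KO and 7246 to 9891 CPM in WT libraries. The part of any of these lists in the Kat2b values was not tested.

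Levels of different genes were compared per kilobase of annotated exon. On that scale Kat2b was at 0.31 ± 0.055 of Kat2a in KO libraries and 0.28 ± 0.031 in WT libraries (SD, n = 4 each), and the ratios overlapped. GCN5 transcripts were thus the more abundant of the pair in all 8 libraries, since single ratios ran from 0.25 to 0.36 in KO and from 0.26 to 0.33 in WT.

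Tada3, the adaptor shared by both complexes, varied least between mice of a genotype in this module, with a coefficient of variation of 4.63%. It was at 30.7, 30.1, 30.0 and 28.9 CPM in KO replicates 1 to 4 and 28.01, 29.2, 31.5 and 27.6 CPM in WT replicates 1 to 4. The KO values lay inside the WT range, and the fold change of 1.03 had a 95% interval of 0.936 to 1.13. Sgf29, the reader of methylated histone tails in the module, was at 9.64, 7.90, 9.95 and 8.36 CPM in KO replicates 1 to 4 and 8.57, 10.5, 8.42 and 8.83 CPM in WT replicates 1 to 4. Its libraries overlapped widely, with a log2 fold change of -0.019 (95% interval -0.26 to 0.22). Of its exon bases 9.38% also lie in an antisense gene.

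TADA2B is the adaptor specific to SAGA and TADA2A its counterpart in ATAC, so the pair marks the enzyme modules of the complexes; Tada2a is counted with the ATAC-only genes. Tada2b had 32.4, 31.5, 28.5 and 32.7 CPM in KO replicates 1 to 4 and 30.4, 33.1, 29.0 and 31.8 CPM in WT replicates 1 to 4. Tada2a had 21.6, 23.4, 20.9 and 19.5 CPM in KO replicates 1 to 4 and 24.2, 22.5, 23.2 and 22.5 CPM in WT replicates 1 to 4. Tada2b showed no shift (log2 fold change 0.0064, 95% interval -0.14 to 0.15). For Tada2a 3 KO libraries lay below every WT library and KO replicate 2 inside the WT range, with a log2 fold change of -0.11 (95% interval -0.27 to 0.041). The ratio of Tada2b to Tada2a per kilobase was 1.15 ± 0.12 in KO and 1.06 ± 0.087 in WT libraries (SD, n = 4 each), with overlapping values, and which of the pair is higher depends on the length used. Of the exon bases of Tada2b 10.8% are shared with the opposite-strand gene Grpel1.

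The deubiquitinase module had 2 genes above 0 and 4 below, with a median log2 fold change of -0.016. Usp22, the gene of its ubiquitin protease, was at 261, 286, 252 and 271 CPM in KO replicates 1 to 4 and 276, 310, 274 and 284 CPM in WT replicates 1 to 4. Of the KO libraries 3 lay below all WT libraries and 1 inside their range, and the fold change was 0.936 (95% interval 0.852 to 1.03). Atxn7l3, whose product activates the protease, was at 278, 285, 281 and 266 CPM in KO replicates 1 to 4 and 284, 290, 282 and 295 CPM in WT replicates 1 to 4. Here again 3 KO libraries lay below every WT library, by little: the fold change was 0.963 (95% interval 0.890 to 1.04).

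Eny2, the gene of a small subunit of the module, measured 60.5, 60.3, 56.5 and 51.9 CPM in KO replicates 1 to 4 and 51.0, 57.8, 56.8 and 59.6 CPM in WT replicates 1 to 4. The groups covered nearly the same range. Its log2 fold change was 0.025 (95% interval -0.12 to 0.17).

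Atxn7 encodes the ataxin that anchors the module to SAGA. It was at 34.4, 32.9, 34.9 and 30.2 CPM in KO replicates 1 to 4 and 32.1, 31.7, 34.1 and 34.9 CPM in WT replicates 1 to 4. The ranges overlapped, and the log2 fold change of -0.0044 had a 95% interval of -0.15 to 0.14. Its relative Atxn7l1 was at 31.9, 36.0, 34.4 and 32.1 CPM in KO replicates 1 to 4 and 32.5, 37.2, 31.5 and 35.6 CPM in WT replicates 1 to 4, and its KO libraries lay inside the WT range.

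Atxn7l2, a further relative of Atxn7, had the largest estimate in the module. It was at 22.9, 26.1, 28.7 and 23.1 CPM in KO replicates 1 to 4, against 23.2, 20.3, 21.0 and 20.5 CPM in WT replicates 1 to 4. KO replicates 2 and 3 stood above all WT libraries, while KO replicates 1 and 4 lay just below WT replicate 1 and above the other WT libraries. The fold change was 1.19 (95% interval 1.05 to 1.35), with an unadjusted p of 0.0122. It did not pass after adjustment (adjusted p = 0.999, edgeR's quasi-likelihood test, adjustment by Benjamini-Hochberg; 0.455 to 1.0 over the settings tried). Without KO replicate 3 its log2 fold change was 0.18, against 0.25 with all libraries, and its unadjusted p was then no longer under 0.05. Per kilobase, Atxn7l2 made up 6.36% ± 0.54 of the summed level of the 4 ATXN7 relatives in KO and 5.25% ± 0.38 in WT libraries, and Atxn7l3 84.3% ± 0.64 in KO and 85.5% ± 0.18 in WT libraries (SD, n = 4 each).

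**Figure D2:**
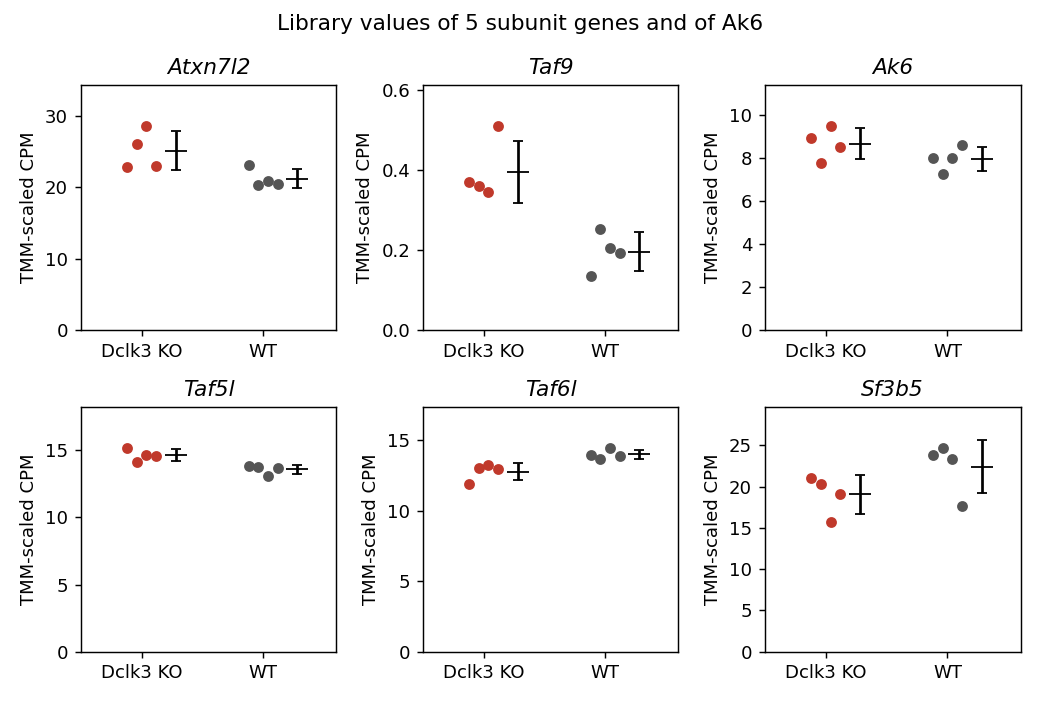
TMM-scaled CPM in each library for 5 subunit genes and for Ak6, which overlaps Taf9; points are libraries and the bars beside them give mean ± SD (n = 4 per genotype). KO libraries of Taf9 and Taf5l all lie above, and those of Taf6l all below, the WT libraries. For Taf9, only the KO libraries carried the gene through the filter on low counts.

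The SAGA core holds the histone-fold and scaffold subunits with TRRAP and the splicing-factor subunits. Of its 13 genes, 6 were above 0 and 7 below, with a median log2 fold change of -0.015. Without Taf9 the other 12 had 5 above and 7 below and ran from -0.24 to 0.11. Trrap, the large scaffold that binds activators, was at 149, 167, 182 and 169 CPM in KO replicates 1 to 4 and 175, 182, 149 and 169 CPM in WT replicates 1 to 4. Both genotypes covered the same range, and the log2 fold change was -0.015 (95% interval -0.18 to 0.15). Supt20, a structural subunit, was at 35.4, 35.7, 39.0 and 37.01 CPM in KO replicates 1 to 4 and 36.4, 32.7, 39.1 and 34.0 CPM in WT replicates 1 to 4, and the KO libraries lay inside the WT range. Its exons share 10.3% of their bases with the opposite-strand gene Gm21958.

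Taf5l and Taf6l encode the SAGA counterparts of TFIID subunits TAF5 and TAF6, and they lay on opposite sides. Taf5l was at 15.2, 14.1, 14.6 and 14.6 CPM in KO replicates 1 to 4, against 13.8, 13.8, 13.1 and 13.7 CPM in WT replicates 1 to 4. Taf6l was at 11.9, 13.03, 13.2 and 12.96 CPM in KO replicates 1 to 4, against 13.9, 13.7, 14.5 and 13.9 CPM in WT replicates 1 to 4. Neither gene had overlapping groups, but the shifts were small: 1.08-fold for Taf5l (95% interval 0.971 to 1.19) and 0.914-fold for Taf6l (95% interval 0.820 to 1.02). The unadjusted p in the edgeR quasi-likelihood test was 0.146 for Taf5l and 0.0942 for Taf6l. Both were named after their values were seen.

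Sf3b5, a small subunit of the SF3b splicing factor and of SAGA, had the lowest estimate of all 32 genes and was also chosen after its values were seen. It was at 21.1, 20.3, 15.8 and 19.1 CPM in KO replicates 1 to 4, against 23.9, 24.7, 23.4 and 17.7 CPM in WT replicates 1 to 4. WT replicate 4, the library rich in choroid plexus markers, was the exception among the WT libraries and lay below 3 KO libraries. The log2 fold change was -0.24 (95% interval -0.49 to 0.019; unadjusted p = 0.0667, edgeR quasi-likelihood test). Without WT replicate 4 it was -0.34, without KO replicate 3 it was -0.15, and in both cases it did not pass the adjusted threshold. Its unadjusted p was under 0.05 with no filter, with limma-voom, without KO replicate 1, without WT replicate 4 and without replicate 4 of both genotypes. Sf3b3, the larger splicing-factor subunit, was at 96.4 to 107 CPM in KO and 102 to 113 CPM in WT libraries.

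Taf9 rested on few counts. They were 9, 10, 12 and 14 in KO replicates 1 to 4 and 4, 9, 6 and 7 in WT replicates 1 to 4, which is 0.369, 0.359, 0.345 and 0.511 CPM in KO and 0.136, 0.253, 0.205 and 0.192 CPM in WT libraries. All KO libraries lay above all WT libraries, at levels near the lowest tested: 3 counts correspond to between 0.0808 and 0.123 CPM. The gene passed the filter on low counts (minimum count 10, scaled to library size) only through its KO libraries. The filter thus admitted the gene for its KO counts but did not change its values, and the log2 value was also 0.98 with no filter. With that selection and so few counts, its separation and direction are not taken as a result. On the log2 scale the difference was 0.98 (95% interval 0.27 to 1.68), with an unadjusted p of 0.0105. It did not pass after adjustment (adjusted p = 0.999, edgeR's quasi-likelihood test, adjustment by Benjamini-Hochberg; 0.644 to 1.0 over the settings tried). The unadjusted p was no longer under 0.05 in the DESeq2 Wald test and without replicate 4 of both genotypes.

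Taf9 (ENSMUSG00000052293, GRCm38 chromosome 13, 100651579 to 100656060, plus strand) lies within Ak6, an adenylate kinase gene on the same strand at 100650979 to 100666359. Of the 2120 exon bases of Taf9, 1564 (73.8%) are also exon of Ak6. Ak6 itself was at 8.90, 7.76, 9.49 and 8.50 CPM in KO replicates 1 to 4 and 7.99, 7.24, 7.98 and 8.58 CPM in WT replicates 1 to 4, with overlapping groups and a log2 fold change of 0.12 (95% interval -0.090 to 0.34). The sources used here do not say how reads that match both genes were assigned, and the part of that step in the Taf9 counts was not tested.

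Taf9b, the X-linked paralog of Taf9, shares exon bases with no other annotated gene. It measured 46.2, 42.9, 41.5 and 44.3 CPM in KO replicates 1 to 4 and 43.5, 38.6, 40.9 and 42.6 CPM in WT replicates 1 to 4. The groups overlapped, with a log2 fold change of 0.079 (95% interval -0.052 to 0.21). The remaining core subunits were Tada1, Supt3, Supt7l, Taf10 and Taf12, whose log2 fold changes ran from -0.064 for Tada1 to 0.063 for Supt7l. Exons of Taf10 and Tada1 overlap opposite-strand genes over 45.9% and 25.6% of their length, and with the strand setting of the counting unstated their values can include reads of those genes, Ilk beside Taf10 and Pogk beside Tada1.

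**Figure D3:**
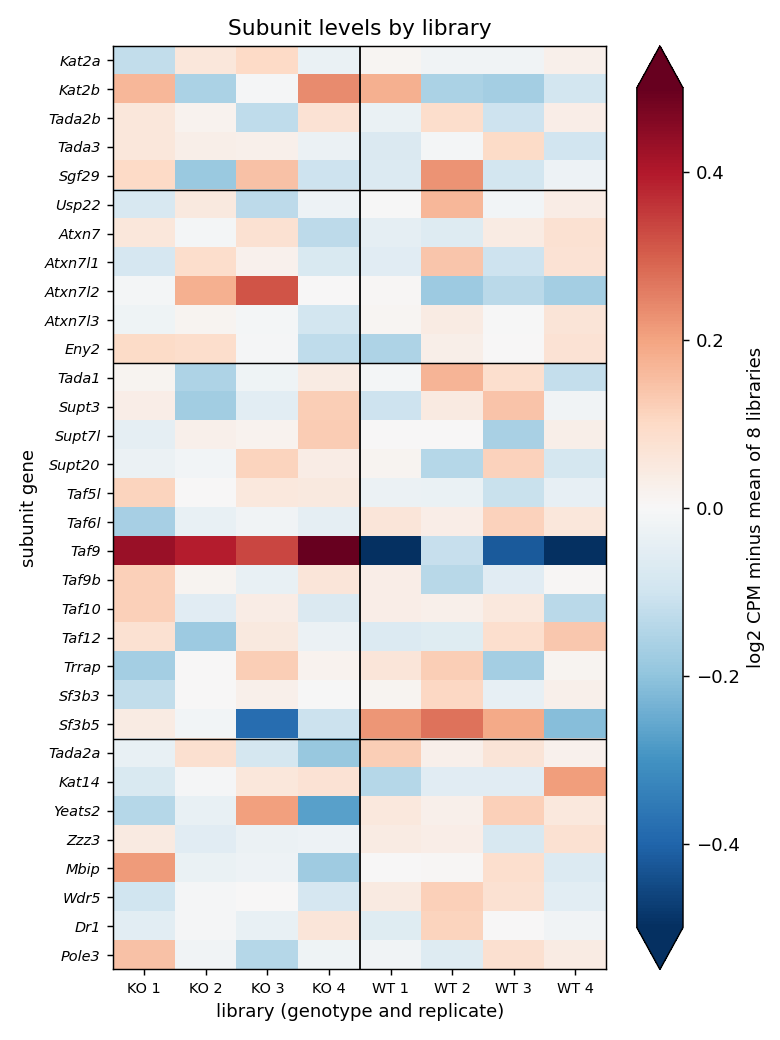
Log2 CPM of each subunit gene (rows, grouped as acetyltransferase, deubiquitinase, SAGA core and ATAC-only from top to bottom) in each library (columns, KO left of WT), as the difference from the mean of the 8 libraries; colours saturate at 0.5 in either direction. Taf9, which passed the filter on low counts only through KO, is the row that separates the genotypes most. Sf3b5, Atxn7l2, Kat2b and Yeats2 vary by library.

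In the ATAC-only module, 7 of 8 genes were below 0 and 1 above; the median log2 fold change was -0.028, within -0.11 to 0.018. Over all genes tested 50.5% were below 0. Kat14, the second acetyltransferase of ATAC, was at 27.8, 29.2, 30.5 and 30.8 CPM in KO replicates 1 to 4 and 26.6, 28.2, 28.2 and 33.9 CPM in WT replicates 1 to 4. KO values lay inside the WT range, and the log2 fold change was 0.018 (95% interval -0.16 to 0.19). Of its exon bases 14.8% are also exon of Pet117 on the same strand.

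Yeats2 encodes the subunit that reads acylated histone tails. It was at 26.5, 28.5, 33.7 and 24.3 CPM in KO replicates 1 to 4 and 30.4, 29.8, 31.8 and 30.4 CPM in WT replicates 1 to 4. KO libraries scattered to both sides of a tight WT group, with SDs of 4.04 CPM in KO and 0.869 CPM in WT, and the log2 fold change was -0.11 (95% interval -0.31 to 0.083). Without KO replicate 3 it was -0.21 with an unadjusted p under 0.05 (adjusted p = 0.999, edgeR's quasi-likelihood test, adjustment by Benjamini-Hochberg), and without KO replicate 4 it was -0.046.

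Zzz3, a zinc-finger subunit that binds histone tails, was at 61.0, 56.9, 58.0 and 58.1 CPM in KO replicates 1 to 4 and 60.9, 60.6, 56.0 and 62.5 CPM in WT replicates 1 to 4. Its groups overlapped, at a fold change of 0.975 (95% interval 0.897 to 1.06). The WD-repeat scaffold gene Wdr5 was at -0.095 on the log2 scale, and the histone-fold genes Dr1 and Pole3 had -0.019 and -0.018. Mbip, which encodes a kinase-binding subunit, had -0.0071.

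No ATAC-only subunit passed on its own, and the module was also summarised by library. The median over the 8 genes of each library's deviation from the 8-library mean, on the log2 scale, was -0.045, -0.013, -0.028 and -0.056 in KO replicates 1 to 4, against 0.021, 0.024, 0.071 and 0.030 in WT replicates 1 to 4. The ranges did not overlap. Those of the other 3 modules and of all 32 subunits did, the last running from -0.026 to 0.023 in KO and from 0.00081 to 0.024 in WT libraries. With the mean of the 8 genes in place of the median the ATAC-only ranges did not overlap either, but the nearest libraries were close, at -0.079 to -0.0013 in KO and 0.0053 to 0.036 in WT. Of the 8 genes, none had groups free of overlap. How often lists of this size separate was not examined, and complexes that share subunits (below) were not summarised by library. TIP60 (median log2 fold change -0.048) and the group around Wdr5 (-0.049) lay further below 0 than this module (-0.028). TFIID (0.044), SF3b (0.026) and the histone-fold partners (0.0025) lay above 0. Related deubiquitinases with TREX-2 were at -0.022. The genes were listed with earlier results of these data known. The module was singled out after its values were seen, and no test was made of the summary.

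Marker lists of several other cell types had medians further from 0 than any module, while spiny neuron markers did not (8 of 12 above 0, median log2 fold change 0.027). Astrocyte markers had 7 of 8 genes above 0, 4 of them with an unadjusted p under 0.05 (median 0.15; summed level 5978 to 6512 CPM in KO and 5409 to 6016 CPM in WT libraries) and endothelial markers 5 of 6 (median 0.26; 242 to 301 CPM in KO and 193 to 263 CPM in WT libraries), with none at 0 counts. Microglia markers had 8 of 8 above 0 (median 0.088; 662 to 804 CPM in KO and 622 to 724 CPM in WT libraries). Blood markers had 5 of 5 above 0, 3 of them with an unadjusted p under 0.05 (median 0.48; 88.9 to 156 CPM in KO and 56.0 to 93.2 CPM in WT libraries). Cortical glutamatergic markers had 5 of 5 below 0 (median -0.18; 696 to 1143 CPM in KO and 939 to 1386 CPM in WT libraries). Oligodendrocyte markers had 8 of 8 above 0 (median 0.19). Choroid plexus markers had 5 of 5 below 0 (median -2.53) and thalamic markers 6 of 6 above 0 (median 0.43). In those lists of adjacent tissue single libraries stood apart, WT replicate 4 for choroid plexus and KO replicate 4 for thalamus. No marker passed the adjusted threshold. In whole striatum, fewer cells of a type and less RNA per cell cannot be told apart, and the part of cell composition in the module values was not tested.

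**Figure D4:**
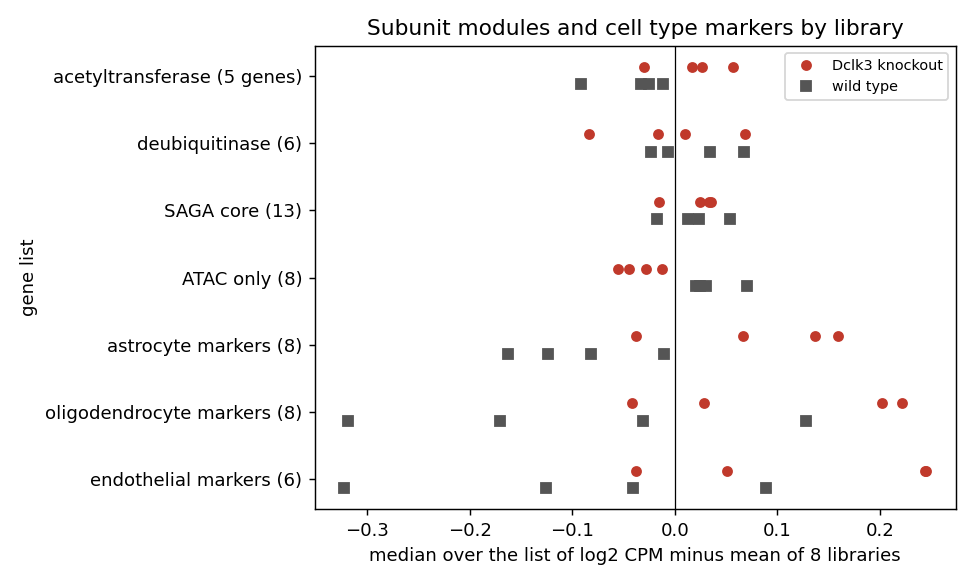
Median, over each gene list, of the difference of log2 CPM in a library from the 8-library mean; each point is a library, KO circles above WT squares. The modules stay between -0.092 and 0.071, while marker lists spread further. The ATAC-only points of KO lie left of those of WT, a separation singled out afterwards and not tested.

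Subunits of one complex differed widely in transcript level, in nearly the same order in both genotypes. Per kilobase of exon, Atxn7l3 was the highest at 67.3 ± 2.04 CPM in KO and 69.9 ± 1.45 CPM in WT libraries, followed by Usp22 at 54.8 ± 2.94 CPM in KO and 58.5 ± 3.37 CPM in WT libraries (SD, n = 4 each). Kat2a followed at 21.3 CPM in KO and 21.2 CPM in WT libraries. Pole3, Dr1 and Taf9b came next, from 13.8 to 16.0 CPM in KO and 13.1 to 16.2 CPM in WT libraries. The lowest apart from Taf9 was Supt3, a histone-fold subunit that contacts TBP, at 1.91 ± 0.17 CPM in KO and 1.95 ± 0.14 CPM in WT libraries (SD, n = 4 each).

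Module medians of the level per kilobase were 7.71 CPM in KO and 7.49 CPM in WT for the acetyltransferase genes and 7.52 CPM in KO and 7.03 CPM in WT for the deubiquitinase genes. They were 4.64 CPM in KO and 4.59 CPM in WT for the core, and 7.70 CPM in KO and 8.02 CPM in WT for the ATAC-only genes. The deubiquitinase module was the most uneven, since its protease and activator stood far above Atxn7, Atxn7l1 and Atxn7l2 (3.34 to 5.09 CPM per kilobase in KO, 3.40 to 4.29 in WT). No gene moved by more than 4 places in the order of 32 between the genotypes. Exon length was the union of all annotated exons. A gene whose annotated exons are not all in use would be understated on this scale. For Atxn7l1 the union was 10.0 kb against 3.55 kb for its longest transcript, and exon use was not measured. With the length of the longest transcript, a choice made after seeing the data, Atxn7l3 and Usp22 stayed highest and Supt3 and Taf9 lowest, but Sf3b3 (22.8 CPM in KO and 23.6 CPM in WT) came level with Kat2a (22.6 CPM in both). Tada1 and Eny2 (18.0 to 19.1 CPM in KO, 18.8 CPM in WT) then lay above Pole3, Dr1 and Taf9b.

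**Figure D5:**
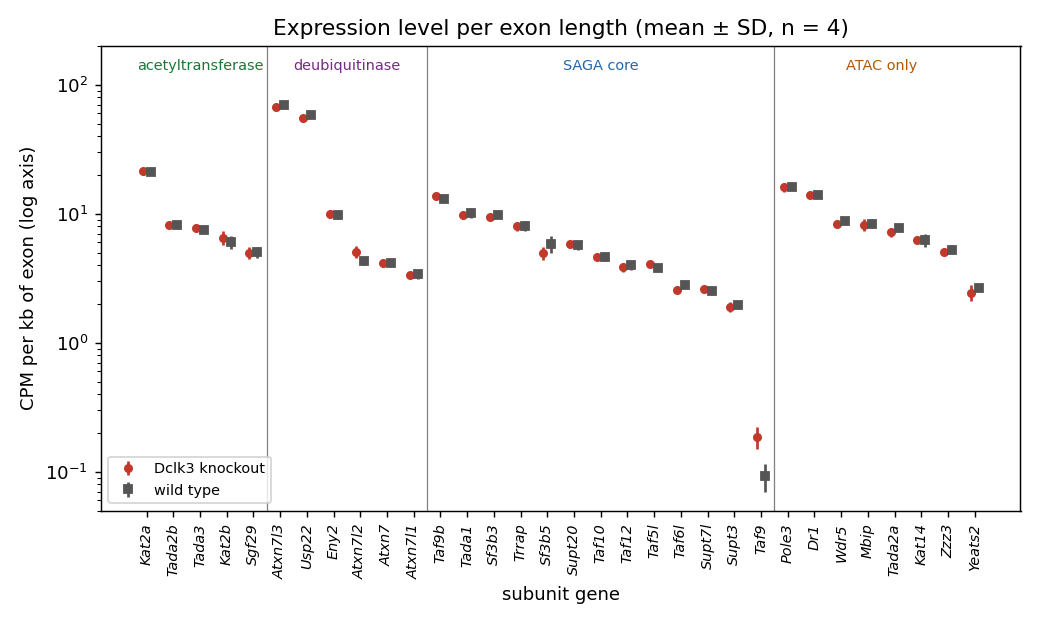
Mean ± SD (n = 4) of CPM per kilobase of exon, on a log axis, for each subunit gene by module, with KO circles left of WT squares. Atxn7l3 and Usp22 stand above all other subunits, Taf9 far below, and KO and WT values lie close together for the others.

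The subunit promoters were mostly rich in CpG, the dinucleotide that marks promoters of broadly expressed genes. RefSeq promoters (GRCm38.p6, 250 bases before to 50 after the start, the first listed start of each gene) were at hand for 28 of the 32 genes. They held a median of 23 CpG and 63.8% G plus C. The medians were 7 CpG and 52.7% over the promoters of 27025 genes, and 14 CpG and 57.0% over 16521 protein-coding genes. Neither set was limited to genes that passed the filter on low counts, as all the subunits did. A comparison with such genes alone was not made, here or for the motifs below. Subunits ran from 6 CpG for Zzz3 to 51 for Atxn7l3, and 27 of 28 lay above the median of all genes. The 100 bases before the start are shown for subunits at different CpG content whose window holds no annotated exon, 5′ to 3′ on the strand of the gene, with each CpG in capitals.
Tada2b (chr5:36484286-36484385, minus strand, 18 CpG): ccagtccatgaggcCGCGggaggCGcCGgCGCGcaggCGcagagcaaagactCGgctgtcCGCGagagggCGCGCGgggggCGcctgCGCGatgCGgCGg
Kat2a (chr11:100712468-100712567, minus strand, 8 CpG): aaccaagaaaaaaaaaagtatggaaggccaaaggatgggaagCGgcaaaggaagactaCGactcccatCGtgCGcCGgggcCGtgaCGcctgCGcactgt
Zzz3 (chr3:152395373-152395472, plus strand, 4 CpG): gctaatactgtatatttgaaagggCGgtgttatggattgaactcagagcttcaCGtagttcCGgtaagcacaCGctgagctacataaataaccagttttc

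Motifs of common promoter factors were searched on both strands of the full 300 bases. The TATA box letters TATAAA were found in 1 of 28 subunit promoters (3.57%), that of Sf3b3, against 14.2% of all promoters and 12.9% of protein-coding ones. The ETS-type motif CCGGAAG was in 6 of 28 (21.4%), against 9.12% of all and 12.3% of protein-coding promoters. The YY1-type motif AAGATGG was in 3 of 28 (10.7%), against 6.48% of all and 6.43% of protein-coding promoters. The palindromic NRF1 motif was in 1 of 28 (3.57%), that of Supt3, against 0.977% of all and 1.37% of protein-coding promoters. None of these motifs was in 18 of the 28, and with so few promoters the shares are descriptions only. The ETS-type motif stands before the start, in capitals and with no annotated exon in the window, in Taf5l (on the opposite strand, so that its reverse complement is read) and in Taf12.
Taf5l (chr8:124021398-124021497, minus strand): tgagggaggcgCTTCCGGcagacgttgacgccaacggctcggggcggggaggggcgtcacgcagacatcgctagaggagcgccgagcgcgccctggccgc
Taf12 (chr4:132274275-132274374, plus strand): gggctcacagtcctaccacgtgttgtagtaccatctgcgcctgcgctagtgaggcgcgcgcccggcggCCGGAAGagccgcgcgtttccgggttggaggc

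Complexes that share subunits with SAGA and ATAC were examined in the same fit. The partner genes named with a value are those with the smallest p of their list, up to 2 in each. Of 54 listed partner genes, all tested, 0 passed the adjusted threshold, 23 were above 0 and 31 below, with a median log2 fold change of -0.019. Estimates lay within 1.1-fold for 48 of 54, and 95% intervals inside 1.25-fold for 47 of 54. For TFIID these counts were 9 and 8 of 12. An unadjusted p under 0.05 was reached by 1 of 54 (1.85%), against 3.76% of all genes. That gene was the TFIID subunit Taf13, at 14.4 CPM ± 1.68 in KO and 11.9 CPM ± 0.650 in WT libraries (SD, n = 4 each), or 0.28 on the log2 scale (adjusted p = 0.999 in edgeR's quasi-likelihood test). TFIID, which shares Taf9, Taf10 and Taf12, had 8 of 12 genes above 0 and a median of 0.044, and its Taf7 had 0.18.

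TIP60, which shares Trrap, had 13 of 17 genes below 0 and a median log2 fold change of -0.048, with Meaf6 at -0.087 and Mbtd1 at -0.12. The methyltransferase group around Wdr5 had 7 of 9 below 0 and a median of -0.049, with the enzyme genes Kmt2a at -0.14 and Kmt2d at -0.16. SF3b had 4 of 5 above 0, with Sf3b6 at 0.077 and Sf3b1 at 0.038. The deubiquitinases related to Usp22 and the TREX-2 genes had 5 of 8 below 0, with Sem1 at 0.15 and Usp51, at under 1 CPM in both genotypes, at 0.29. Of the histone-fold partners Drap1 had 0.0034, and Pole4 had -0.12 with its KO libraries all below its WT libraries. Among all 54 partners this was the 1 gene free of overlap, against 1.93% of all genes tested.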

How the data were processed

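Per the labels' protocols, each library came from a single striatum of a 12-month-old mouse and used 1000 ng of RNA, poly(A) selection, a stranded kit and 12 PCR cycles. The authors deposited whole-number read counts per Ensembl gene for the 8 libraries; per the submitters' processing notes base calls came from bcl2fastq 2.17.1.14 and the build was mm10. The sources used here name no aligner, counter, annotation or strand setting. Symbols, positions and exon lengths were taken from GENCODE M21 (GRCm38), which matched 31292 of 31417 identifiers. In R 4.3.3, edgeR 4.0.16 kept genes by filterByExpr (minimum count 10), scaled by TMM and tested genotype, the sole term, in a robust quasi-likelihood fit, with two-sided p-values adjusted by Benjamini-Hochberg over 16511 genes. Intervals (95%) come from the quasi-likelihood statistic; floors of 3 counts cover counting error only. Chi-square per degree of freedom was 6.60 to 29.6 between libraries of a genotype, so none was a copy; p-values measure the spread between these libraries. The subunits and gene lists were chosen with earlier results of these data known, so no set was tested. Full values are given for Kat2a, Kat2b, Kat14, Usp22, Tada3, Tada2a, Tada2b, Sgf29, Yeats2, Zzz3, Trrap, Supt20, the ATXN7 relatives, Eny2, Taf9, Taf9b and any subunit with an unadjusted p under 0.05. Of the partners, up to 2 with the smallest p in each list are named, with the log2 fold change. Alternatives were DESeq2 size factors, upper-quartile scaling, no filter, the DESeq2 1.42.0 Wald test, limma-voom (limma 3.58.1), the replicate number as a block, leaving out each library or replicate 4 of both genotypes, and, for length, the longest transcript.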

Additional observations from a re-analysis of the deposited data

Results flagged for a closer look

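In a group of 4 libraries, a library was singled out when its gap to the nearest other exceeded 0.83 of the range of the group. Chance alone does this in about 1 group in 20, and 4 of 66 groups did so here (32 subunits and Dclk3, in each genotype). Taf9 was at 0.511 CPM in KO replicate 4, against 0.345 to 0.369 CPM in the other KO libraries. Supt7l was at 15.9 CPM in WT replicate 3, against 17.9 to 18.2 CPM in the other WT libraries. Taf5l was at 13.1 CPM in WT replicate 3, against 13.7 to 13.8 CPM in the others. Taf10 was at 19.2 CPM in WT replicate 4, against 21.5 to 21.9 CPM in the others.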

How the results depend on the processing

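Under all 15 alternative fits 0 subunits passed the adjusted threshold, and the smallest adjusted p of any subunit was 0.365 (Sf3b5, without replicate 4 of both genotypes). The number of genes called was 1 to 2 when single libraries were left out, the second being 1520401A03Rik without WT replicate 1; it was 2 with the DESeq2 Wald test (Dclk3 and Malat1) and 3 without replicate 4 of both genotypes (Dclk3, Gm26917 and Gpr101). With no filter edgeR called 1 gene, Malat1, and Dclk3 missed the threshold at a log2 fold change of -2.07 (adjusted p = 0.0647, edgeR quasi-likelihood test); the cause was not tested. The median of the subunits was 0.00081 with limma-voom and -0.026 to -0.00087 with single libraries left out. The sources used here do not say whether the replicate numbers pair the mice. Same-numbered deviations had correlations of -0.28 to 0.053, which cannot settle how the mice were matched. With the replicate number as a block 1 gene and 0 subunits passed.

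Of the 480 comparisons of a subunit's log2 fold change with an alternative, 432 kept the sign and 48 turned it, all of estimates close to 0. Kat2a was at -8.9e-05 with DESeq2 size factors, -0.0013 with no filter, -0.0018 with limma-voom and -0.00025 with the replicate block. With limma-voom Sgf29 was at 0.0053, Atxn7 at 0.020, Atxn7l1 at 0.0076 and Mbip at 0.0035. Without replicate 4 of both genotypes Tada2b was at -0.0053, Atxn7 at 0.063, Atxn7l1 at 0.014, Taf10 at -0.0026 and Mbip at 0.022. With single libraries left out the ranges were -0.032 to 0.041 for Kat2a, -0.026 to 0.049 for Tada2b, -0.075 to 0.059 for Sgf29, -0.031 to 0.037 for Atxn7, -0.064 to 0.016 for Atxn7l1, -0.020 to 0.070 for Eny2, -0.083 to 0.016 for Supt3, -0.028 to 0.039 for Taf10, -0.076 to 0.0063 for Taf12, -0.071 to 0.036 for Trrap, -0.025 to 0.099 for Kat14, -0.083 to 0.046 for Mbip, -0.043 to 0.017 for Dr1 and -0.072 to 0.026 for Pole3. With the longest transcript as length, the WT ratio of Tada2b to Tada2a was 0.76 in place of 1.06, and that of Atxn7l1 to Atxn7l3 0.12 in place of 0.049.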
